A study of Mus musculus with 9 samples.

Results

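Fibro-adipogenic progenitors sorted from injured quadriceps muscle (injured FAPs) were compared with FAPs from non-injured quadriceps at 1 day post-injury (dpi), across every gene that was measured well enough to compare. A gene was a member of the comparison when its mean deposited value over the 5 libraries was at least 10, which 13545 of 26214 listed genes reached. The study covered adipose stromal cells (ASCs) of subcutaneous adipose tissue (ScAT), FAPs, injured FAPs and CD31+CD45+ cells by bulk RNA sequencing, in 9 libraries. The CD31+CD45+ library (n = 1) came from quadriceps of C57Bl/6 mice injected with glycerol and the ASC libraries (n = 3) from mice injected with NaCl, both also at day 1. FAPs (n = 2) came from C57Bl/6 mice injected with NaCl, and injured FAPs (n = 3) came from C57Bl/6 mice whose quadriceps received glycerol, a myotoxic injection of 80 µL at 50% in saline. The mice of the study were males of 8 to 12 weeks, and both groups were taken at day 1. Both sorts removed CD45+ and CD31+ cells and then took Sca-1+ cells on magnetic beads, and replicate libraries were made from a pool of cells of 3 animals (triplicates are described, and 2 FAP libraries were deposited), so the spread between replicates may measure technical spread more than differences between mice. Depth was 24052508 and 24164447 reads in the FAP libraries and 26698572 to 27028114 reads in the injured FAP libraries.

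FAPs are mesenchymal cells of the muscle interstitium that lie outside the fibres, mark for Pdgfra and Sca-1, and make much of the collagen and proteoglycan of resting muscle. After injury they are known to send cytokines and matrix to satellite cells and leukocytes, to divide, and later to be cleared or to turn into fibroblasts or adipocytes. The comparison asks which parts of that programme had changed in the RNA of the sorted cells by 1 dpi.

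Of the 13545 members, 12697 had a mean of at least 10 in both groups, 368 reached it in injured FAPs alone and 480 in FAPs alone. The lowest mean inside the limit was 10.01 and the highest outside it was 9.9996, while 5116 genes above 0 lay under the limit and 7553 were at 0 in all 5 libraries. Values are reads divided by a library size factor, so levels are not per length.

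Some libraries stood apart before any test. Across genes, the log2 values of the FAP libraries correlated at r = 0.985 and those of injured FAPs at 0.990 to 0.994, against 0.831 to 0.851 between groups, a description over genes that are not independent. Injured FAP 2 had higher values of leukocyte markers than the other injured libraries. The 16 monocyte and macrophage markers summed to 3856 in injured FAP 2 against 847 and 745 in injured FAPs 1 and 3, and to 270 and 500 in the FAP libraries. In 133 of 13065 genes with an injured mean of at least 10, injured FAP 2 was at least 2 times each other injured library, against 4 genes for injured FAP 1 and 8 for injured FAP 3. The FAP libraries, for their part, listed 125 members at 0 in both, and a further 56 at 0 in exactly 1 of them. Of those 56 genes, 11 reached at least 20 in the other FAP library. The highest of these was at 1080 (1136 reads) in FAP 1 and 0 in FAP 2, and Pecam1 was at 195 and 0. Whether the zeros are counts, or reads were removed before deposit, was not tested. Genes listed at 0 are therefore given without folds. List medians with bounds (3 reads per FAP library) hold only if the zeros are counts.

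Most normalised reads lay in genes called in the comparison. With limma, 7445 of 13545 genes (55.0%) passed an adjusted p of 0.05 and changed by more than 0.58 on the log2 scale, about 1.5-fold. Of these 3487 were higher in injured FAPs (25.7% of genes tested) and 3958 lower (29.2%). Counts of called members in the lists below stand against these shares. The values of the groups did not overlap in 3483 of the higher and in 3958 of the lower genes. Calls favour genes whose groups are apart, so these counts add no separate evidence, and the share apart over all genes is not given. The higher genes held 15.2% and 14.2% of all normalised reads in the FAP libraries and 38.4%, 38.7% and 39.6% in injured FAPs. The lower genes held 47.8% and 49.5% in FAPs and 20.7%, 20.6% and 19.9% in injured FAPs. Changes beyond 2-fold numbered 2108 up and 2644 down, and those beyond 16-fold 295 up and 60 down. Of the rises beyond 16-fold, 181 were in genes with reads in FAPs, since the fitted change of a gene at 0 depends on the pseudocount. Among the 419 long non-coding RNAs tested, 56 were higher and 185 lower.

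**Figure D1:**
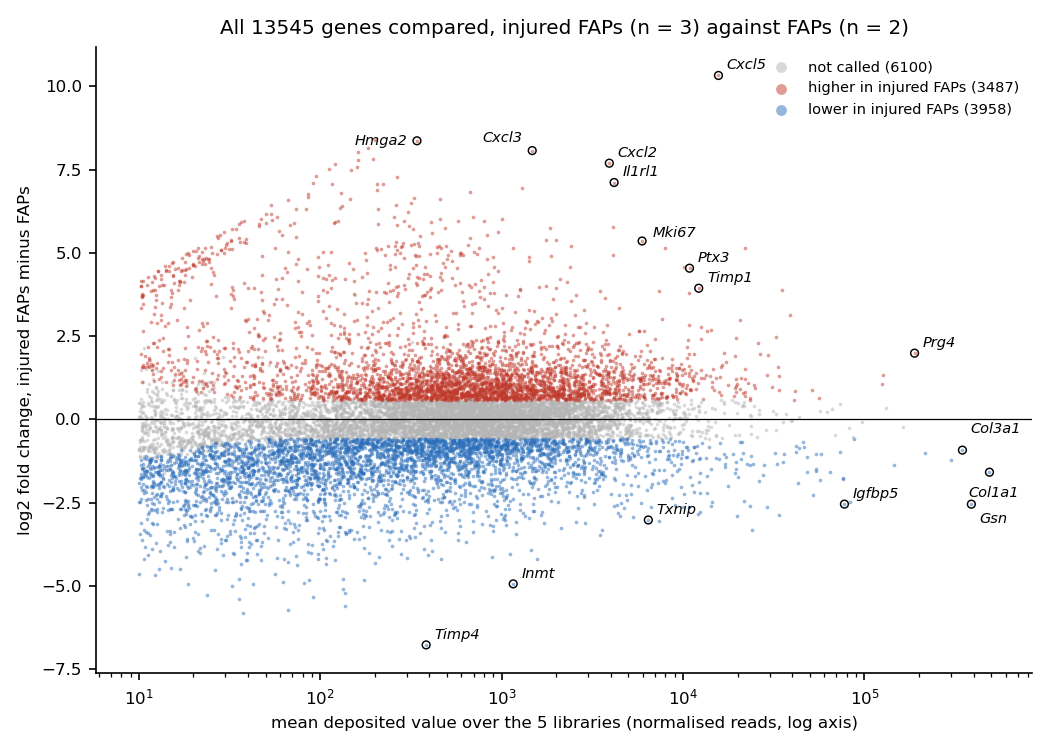
Each point is 1 of the 13545 genes, with its mean deposited value over the 5 libraries on a log x axis and its log2 fold change (injured FAPs minus FAPs) on the y axis. Genes called higher (3487) are red, genes called lower (3958) blue and genes not called grey, the circled genes are described in the text, and the slanted upper edge at low means holds genes at or near 0 in FAPs.

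Most FAP markers fell, while the antigen used for the sort rose. Of 20 sort and FAP-defining markers, 3 rose and 13 fell, with a median log2 fold change of -1.16 against -0.05 over all genes. Under quantile normalization 3 rose and 11 fell, with a median of -0.61. Together the 20 markers held 13.0% and 13.6% of normalised reads in FAPs and 5.22% to 5.54% in injured FAPs. Ly6a, which encodes the sorted antigen Sca-1, was 16542 and 10823 in FAPs and 24309, 21308 and 24855 in injured FAPs. The injured libraries were all higher, and the rise was 1.72-fold (log2 0.81 ± 0.16 SE, adjusted p = 8.80e-04), though without FAP 2 the log2 difference was 0.50 and not called. Pdgfra, the PDGF receptor that defines FAPs, was 17754 and 17756 in FAPs and 23649, 25268 and 23236 in injured FAPs, a log2 difference of 0.44 under the threshold. Thy1, another surface marker of stromal cells, was 8532 and 9472 against 9972, 9284 and 8589.7, and these ranges overlapped. Cd34, a sialomucin of stromal and endothelial progenitors, was 32892 and 30696 in FAPs and 11933, 10736 and 11553 in injured FAPs. All FAP values stood above all injured ones, a 2.79-fold fall (log2 -1.48 ± 0.09 SE, adjusted p = 1.70e-07). Pdpn, the mucin-type glycoprotein podoplanin that binds CLEC-2 on platelets, was 2858 and 2697 in FAPs and 19613, 19007 and 18419 in injured FAPs, 6.84-fold higher (adjusted p = 2.94e-09). Clec3b, the plasminogen-binding tetranectin, went the other way from 10437 and 11726 to 1404, 1339 and 1576, 7.70-fold lower. In bulk RNA, fewer cells of a type and less RNA per cell cannot be told apart, so a marker's fall can stand for either.

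The largest rise among named genes was in a chemokine that draws neutrophils. Cxcl5, a ligand of the neutrophil receptor Cxcr2, was 8.56 and 42.3 in FAPs and 24537, 25243 and 28574 in injured FAPs. Every injured library lay far above both FAP libraries, and the ratio of means was 1026, or 617 without FAP 1 and 3052 without FAP 2 (log2 10.32 ± 0.46 SE, adjusted p = 2.98e-08). Cxcl3, a close relative with the same receptor, was 5.71 and 11.3 against 2579.8, 2062 and 2713, 288-fold higher. Cxcl2 was 21.9 and 42.3 against 6843, 5832 and 6877, 203-fold higher. Cxcl1 started from a high level, 4794 and 3009 in FAPs, and reached 57129.7, 48723 and 62696, 14.4-fold higher. The CD31+CD45+ library, by comparison, held 3.14 of Cxcl5, 4.71 of Cxcl3, 1362 of Cxcl2 and 711 of Cxcl1, below the injured FAP values for each of these genes. The 4 genes lie in the same stretch of chromosome 5 of GRCm38, at chr5:90759298-90761625 (Cxcl5), chr5:90786101-90788093 (Cxcl3), chr5:90891245-90893121 (Cxcl1) and chr5:90903899-90905938 (Cxcl2), with other genes between them, Ppbp and Pf4 among these.

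Promoters are shown for 3 of these genes that rose together, picked because they hold the letters of an NF-kB motif close to the start. No match was found for Cxcl5, for lack of either the letters or a promoter. Given 5′ to 3′ are the 250 bases before the start from RefSeq GRCm38.p6, with the motif GGANTTTCC, searched on both strands, in capitals. They lie on the + strand at chr5:90890995-90891244 for Cxcl1, chr5:90903649-90903898 for Cxcl2 and chr5:90785851-90786100 for Cxcl3, and the motif begins 70, 96 and 72 bases before the start.
Cxcl1: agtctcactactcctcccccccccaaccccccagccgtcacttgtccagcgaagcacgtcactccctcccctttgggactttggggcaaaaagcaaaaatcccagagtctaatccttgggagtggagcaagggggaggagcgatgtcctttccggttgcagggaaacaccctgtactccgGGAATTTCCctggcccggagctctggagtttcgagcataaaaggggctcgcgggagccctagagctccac
Cxcl2: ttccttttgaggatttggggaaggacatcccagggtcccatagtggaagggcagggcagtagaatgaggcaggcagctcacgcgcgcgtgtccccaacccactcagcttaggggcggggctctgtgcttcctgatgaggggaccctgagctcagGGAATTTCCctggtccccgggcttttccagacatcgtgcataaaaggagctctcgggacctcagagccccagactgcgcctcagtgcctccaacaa
Cxcl3: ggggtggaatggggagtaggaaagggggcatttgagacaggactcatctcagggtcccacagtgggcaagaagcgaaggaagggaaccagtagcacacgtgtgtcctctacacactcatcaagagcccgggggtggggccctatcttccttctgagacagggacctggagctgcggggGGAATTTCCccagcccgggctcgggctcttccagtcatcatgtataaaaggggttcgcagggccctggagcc
Of 27025 RefSeq genes with a promoter (300 bases around the start), 1.45% held this motif, as did 1.65% of the genes tested that had a promoter. A match is a description of letters, not a bound site, and no share is given for the chemokines, since 66.7% of those tested had a promoter in the table.

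Over the whole list, 14 of 21 chemokines tested rose and 2 fell (3 under quantile normalization and with a common 75th percentile), with a median of 3.30, or 3.19 with the 3 genes at 0 in FAPs set to their lower bound. Leaving out the 4 genes at 0 in a FAP library left 10 higher of 17. Ccl2 and Ccl7, monocyte chemoattractants chosen after their values were seen, were 35.4-fold and 22.6-fold higher, with means of 36125 ± 4410.5 and 16289 ± 1682 (SD, n = 3) after injury. The genes that fell, also chosen after their values were seen, were the eosinophil attractant Ccl11 (7761 to 4889.8, log2 -0.66, and -0.51 with no call without FAP 1) and Ccl27a. Ccl11 sits between Ccl7 and Ccl8 on chromosome 11, at chr11:82057832-82062955, so a gene in a stretch of rising genes moved the other way. Cxcl14 was 25139.8 and 23879 in FAPs and 27582, 31016 and 23458 in injured FAPs, ranges that overlapped. Ccl9, a myeloid attractant, was listed at 0 in FAPs and at 206, 495 and 215 in injured FAPs. Injured FAP 2 was the highest of the 3 for Ccl9, and the CD31+CD45+ library held 705, and the part of leukocyte RNA in its rise was not tested.

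Cytokines followed the chemokines, with 16 of 24 cytokines and colony-stimulating factors higher (66.7%), 5 lower (20.8%) and a median of 2.50. The shares of all genes were 25.7% and 29.2%. Csf1, which keeps macrophages alive, was 9106 and 8344 in FAPs and 52626, 45563 and 46426 in injured FAPs. The groups stood apart, 5.53-fold (log2 2.46 ± 0.10 SE, adjusted p = 1.64e-08). Il6, an inflammatory cytokine that also acts on satellite cells, was 1000.3 and 652 against 11522, 10246 and 13258, 14.1-fold higher (adjusted p = 2.33e-08). Lif, its relative that signals through the same gp130 subunit, was 596 and 779 against 6726, 6687 and 7254 (log2 3.33). The 5 that fell, chosen after their values were seen, were Il12a, Tnf, Il15, Il34 and Ctf1, of which Ctf1 was not called without FAP 2 (log2 -0.84) or without injured FAP 1 (-0.90). Tnf, the classic macrophage cytokine, was 82.7 and 125 in FAPs and 18.8, 69.0 and 17.5 in injured FAPs, where injured FAP 2 was the highest. Il1b and Il1rn, the interleukin-1 beta cytokine and its receptor antagonist, were listed at 0 in FAPs and highest in injured FAP 2, where Il1b was 282.9 against 43.9 and 38.9 in injured FAPs 1 and 3. Without the 3 genes at 0 in a FAP library, 13 of 21 cytokines were higher.

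Receptors for injury signals had 6 of 28 higher (21.4%) and 5 lower (17.9%), against 25.7% and 29.2% of all genes, with a median of 0.22 (0.10 under quantile normalization and 0.07 with GC-corrected values), and held a very large rise. Il1rl1, the receptor ST2 for the alarmin interleukin-33, was 78.9 and 30.1 in FAPs and 7120.4, 6089 and 7529.5 in injured FAPs. No values overlapped, and the mean was 127-fold higher, or 229.6-fold without FAP 1 (log2 7.11 ± 0.30 SE, adjusted p = 2.16e-08), while the CD31+CD45+ library held 70.6. Its ligand Il33, chosen after its values were seen, rose 6.24-fold from a mean of 1382 to 8621. Il13ra1, a chain of the interleukin-4 and interleukin-13 receptor, was 4.67-fold higher. The receptors that fell were Il11ra1, Ifngr1, Tgfbr2, Lifr and Tlr4, chosen after their values were seen, so that Lif rose while its receptor chain Lifr was 1.76-fold lower. Tlr4 was not called without FAP 1 (log2 -0.53) or without injured FAP 1 (-0.58).

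Genes downstream of NF-kB, the transcription factor of inflammatory signalling, were mostly higher, 20 of 25 with 1 lower and a median of 0.87. Ptgs2, the prostaglandin synthase COX-2, was 4592 and 3379 in FAPs and 30673, 27318 and 36900.1 in injured FAPs, 7.94-fold higher (adjusted p = 5.91e-08). Saa3, an acute-phase serum amyloid, was 15.2 and 12.2 against 359, 863 and 508, 42.0-fold higher, with injured FAP 2 the highest library. Cebpd, chosen after its values were seen, was the member that fell, and was not called without FAP 1 (log2 -0.57). Interferon-stimulated genes showed 22 of 30 higher, with a median of 1.32 and 1 lower under quantile normalization and with a common 75th percentile. Cxcl10, an interferon-induced T cell attractant, was 242 and 198 against 2748, 1668 and 2181 (log2 3.30). Oasl2, an antiviral gene, was 4.13-fold higher, and Irf1, an interferon-induced transcription factor, was 3029 and 3044 in FAPs and 2281, 1957 and 2206 in injured FAPs with no call. The NF-kB letters were in the promoters of 25.0% of the 20 NF-kB targets with a promoter, and the interferon response element TTCNNTTTC in those of 62.5% of 24 interferon-stimulated genes, against 1.45% and 9.76% of all RefSeq genes with a promoter and 1.65% and 8.63% of genes tested that had a promoter.

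Immediate early genes, which switch on within minutes of a stimulus or of tissue handling, had 5 of 22 higher (22.7%) and 9 lower (40.9%), against 25.7% and 29.2% of all genes, with a median of -0.24 (-0.08 under quantile normalization and with GC-corrected values). Egr1, a zinc finger factor of this class and among the 10 most abundant genes of FAPs, was 161561 and 163772 in FAPs and 28857, 35053 and 25086 in injured FAPs. It was 5.48-fold lower in the injured libraries (log2 -2.47 ± 0.14 SE, adjusted p = 1.67e-07). Fosl1, the late AP-1 subunit Fra-1, was 246 and 175 against 3442, 3066 and 3077, 15.2-fold higher. The others that rose were Ier3, Myc, Klf6 and Ier5, chosen after their values were seen. The part of tissue handling in these values was not tested.

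Cell division genes moved as whole lists. All 30 DNA replication genes and all 27 mitosis genes tested were higher under the reported fit, with medians of 3.84 and 4.76. Without genes at 0 in a FAP library, 29 of 29 and 26 of 26 were higher. Mcm6, a subunit of the helicase that licenses origins, was 379 and 385 in FAPs and 5577, 5325 and 5765 in injured FAPs. The replicates lay close together within each group, and the rise was 14.5-fold (log2 3.86 ± 0.07 SE, adjusted p = 5.72e-10). Pcna, the sliding clamp of DNA polymerase, was 833 and 769.6 against 5925, 5221 and 6183, 7.21-fold higher. Tk1, the thymidine kinase of S phase, was 13.3 and 44.2 against 1729, 1567 and 1639.8, 57.2-fold higher, or 37.2-fold without FAP 1 and 124-fold without FAP 2. Orc1, an origin recognition subunit, had 1 read in the FAP libraries together and was 252, 244 and 244 in injured FAPs. Mki67, the proliferation marker Ki-67, was 175 and 322 in FAPs and 9381, 10089.5 and 9774 in injured FAPs, 39.3-fold higher (adjusted p = 9.58e-09). Top2a, the topoisomerase that untangles chromosomes, was 63.7 and 234 against 6352, 6840.0 and 7029, 45.2-fold higher, or 28.8-fold without FAP 1 and 106-fold without FAP 2. In the CD31+CD45+ library of glycerol-injected quadriceps these genes were far lower than in injured FAPs, at 849 for Mcm6, 568 for Mki67 and 198 for Top2a.

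Promoters of both lists are shown for the motifs known from cell-cycle genes. For Mcm6 the capitals mark the E2F letters TTTGGCGC or TTTCCCGC, and for Mki67 and Top2a the cell-cycle homology region letters TTTGAA on either strand, in the 250 bases before the start (RefSeq GRCm38.p6, - strand, 5′ to 3′). The stretches are chr1:128359706-128359955 for Mcm6, chr7:135716380-135716629 for Mki67 and chr11:99024190-99024439 for Top2a.
Mcm6: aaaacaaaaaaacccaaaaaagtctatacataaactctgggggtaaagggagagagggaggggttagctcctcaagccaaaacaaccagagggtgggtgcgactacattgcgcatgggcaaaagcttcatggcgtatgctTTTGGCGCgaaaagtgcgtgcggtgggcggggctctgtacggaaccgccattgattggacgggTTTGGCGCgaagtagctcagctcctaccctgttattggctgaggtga
Mki67: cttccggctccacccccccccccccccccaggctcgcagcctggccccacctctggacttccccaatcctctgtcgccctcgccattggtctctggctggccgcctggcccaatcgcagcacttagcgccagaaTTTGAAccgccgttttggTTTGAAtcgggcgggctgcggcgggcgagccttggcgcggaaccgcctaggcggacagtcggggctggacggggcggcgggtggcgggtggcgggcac
Top2a: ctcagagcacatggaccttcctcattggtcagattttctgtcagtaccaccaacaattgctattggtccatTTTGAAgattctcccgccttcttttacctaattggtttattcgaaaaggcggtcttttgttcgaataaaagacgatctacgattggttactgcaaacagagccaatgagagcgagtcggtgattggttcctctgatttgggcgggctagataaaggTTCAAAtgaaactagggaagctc
E2F letters were in 32.0% of the promoters of 25 DNA replication genes, against 1.80% of all RefSeq genes with a promoter and 3.37% of genes tested that had a promoter. TTTGAA was in 77.3% and CCAAT in 81.8% of the promoters of 22 mitosis genes, against 20.2% and 41.1% of all and 14.2% and 42.9% of those tested. Both strands were searched, and no test was made of these shares.

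Genes that hold cells out of the cycle went the other way, 16 of 27 brakes and quiescence genes lower and 3 higher, with a median of -0.99. Txnip, the thioredoxin-binding arrestin that limits glucose uptake, was 13813 and 13343 in FAPs and 1689, 1496 and 1844 in injured FAPs, 8.10-fold lower (adjusted p = 4.90e-09). Gas1, a membrane protein that rises at growth arrest, was 23865 and 22999.5 against 5446, 5108 and 4668, 4.62-fold lower. Klf15, a Krüppel-like factor, was 195 and 156 against 21.2, 25.6 and 19.8, 7.91-fold lower. The 3 that rose, chosen after their values were seen, were the retinoblastoma relative Rbl1, the Cdk inhibitor Cdkn2c and Btg1. Without genes at least 2 times higher in CD31+CD45+ cells than in injured FAPs 4 of 13 were lower and 3 higher, a filter that takes away lower genes by its construction. Hmga2, a chromatin protein of fetal and dividing mesenchyme, had 2 reads in the FAP libraries together and was 665, 421 and 619 in injured FAPs, while the CD31+CD45+ library was at 0.

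Growth machinery rose alongside. Ribosome biogenesis genes were higher in 27 of 28 cases (median 1.77). Npm1, the nucleolar chaperone nucleophosmin, was 2475 and 2117 in FAPs and 14638, 16188 and 18209 in injured FAPs, 7.12-fold higher (log2 2.83 ± 0.11 SE, adjusted p = 1.08e-08). Ncl, the nucleolar protein nucleolin, was 3356 and 3171 against 18726, 20275 and 22088, 6.24-fold higher. Cytosolic ribosomal proteins were higher in 39 of 40 genes with a median of 1.29. Rpsa, of the small subunit, was 2.92-fold and Rplp0, of the large subunit stalk, 2.52-fold higher. Among Myc and polyamine genes, 9 of 16 rose (56.25%) and 4 fell (25%), against 25.7% and 29.2% of all genes (median 1.02). Those that fell were Mycn and the Myc antagonists Mxd1, Mxd4 and Mxi1, chosen after their values were seen.

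Protein quality control and metabolism showed the same sign in most members. All 27 proteasome subunits tested were higher, with a median of 1.17, and Psmd2, a scaffold of the regulatory particle, went from 1996 and 1909 to 5742, 5675 and 6070.4. Secretory pathway and unfolded protein response genes were higher in 17 of 26 and lower in 2, or in 3 under quantile normalization or a common 75th percentile and 1 with GC-corrected values (median 0.81). Hspa5, the chaperone BiP, was 27294 and 28836 against 50025, 51682 and 50580.2, 1.81-fold higher, whereas Ddit3 and Herpud1, chosen after their values were seen, fell. Herpud1 was not called without FAP 2 (log2 -0.55) or without injured FAP 2 (-0.54). Oxidative phosphorylation subunits were higher in 18 of 25 (median 0.84), with Atp5b, a catalytic subunit of ATP synthase, 2.35-fold higher. Glycolysis and hypoxia genes were higher in 14 of 23 and lower in 3 (median 1.08). Hk2, the hexokinase that commits glucose to the cell, was 1126 and 1123 in FAPs and 5718, 5089 and 5423 in injured FAPs, 4.81-fold higher (adjusted p = 6.44e-09). Pkm, pyruvate kinase, was 3.75-fold and Ldha, lactate dehydrogenase, 3.56-fold higher. The members that fell, chosen after their values were seen, were the hypoxia-responsive Egln3, Bnip3 and Ndrg1, of which Ndrg1 was not called without injured FAP 2 (log2 -0.58). The hypoxia response letters ACGTG were in 72.7% of 22 promoters of the list, against 21.8% of all RefSeq genes with a promoter and 28.9% of genes tested that had a promoter.

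Sterol and fatty acid synthesis rose further than other metabolic lists in its median, 2.14, with 22 of 26 genes higher. Fdps, which makes farnesyl diphosphate for sterols and prenylation, was 318 and 321 in FAPs and 2710.1, 2426 and 2195 in injured FAPs, 7.66-fold higher (log2 2.93 ± 0.09 SE, adjusted p = 6.20e-09). Fasn, the fatty acid synthase, was 4627 and 4929.7 against 14239, 13424 and 12165, 2.78-fold higher, and Scd1, a desaturase chosen after its values were seen, was the gene that fell, and was not called without FAP 1 (log2 -0.58). In the amino acid stress list, 15 of 23 genes were higher (65.2%) and 5 lower (21.7%), or 3 lower with GC-corrected values (median 0.94). The shares of all genes were 25.7% and 29.2%. Psat1, of serine synthesis, was 259.6 and 236 against 3105, 2864 and 3084, 12.2-fold higher. Slc7a11, the cystine importer, was 8.56 and 7.53 against 119, 130.2 and 129, 15.7-fold higher. Atf4, the factor that drives this programme, was 8824 and 7986 in FAPs and 9797, 8861 and 9778 in injured FAPs with no call. The genes that fell were Atf5 and, chosen after their values were seen, Stc2, Chac1, Ddit3 and Trib3, and Trib3 was not called without FAP 1 (log2 -0.59). The Slc7a11 promoter is shown because it holds 2 copies of the Atf4 response letters TGATGNAA, in capitals, within 250 bases of the start (chr3:50443614-50443863, - strand, RefSeq GRCm38.p6, 5′ to 3′).
Slc7a11: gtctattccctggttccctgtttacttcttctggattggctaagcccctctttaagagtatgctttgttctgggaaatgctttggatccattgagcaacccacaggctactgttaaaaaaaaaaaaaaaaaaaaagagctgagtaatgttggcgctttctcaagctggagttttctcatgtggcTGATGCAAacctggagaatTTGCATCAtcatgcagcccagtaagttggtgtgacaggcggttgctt
These letters, on either strand, were in 31.6% of 19 promoters of the list against 4.51% of all RefSeq genes with a promoter and 2.80% of genes tested that had a promoter.

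**Figure D2:**
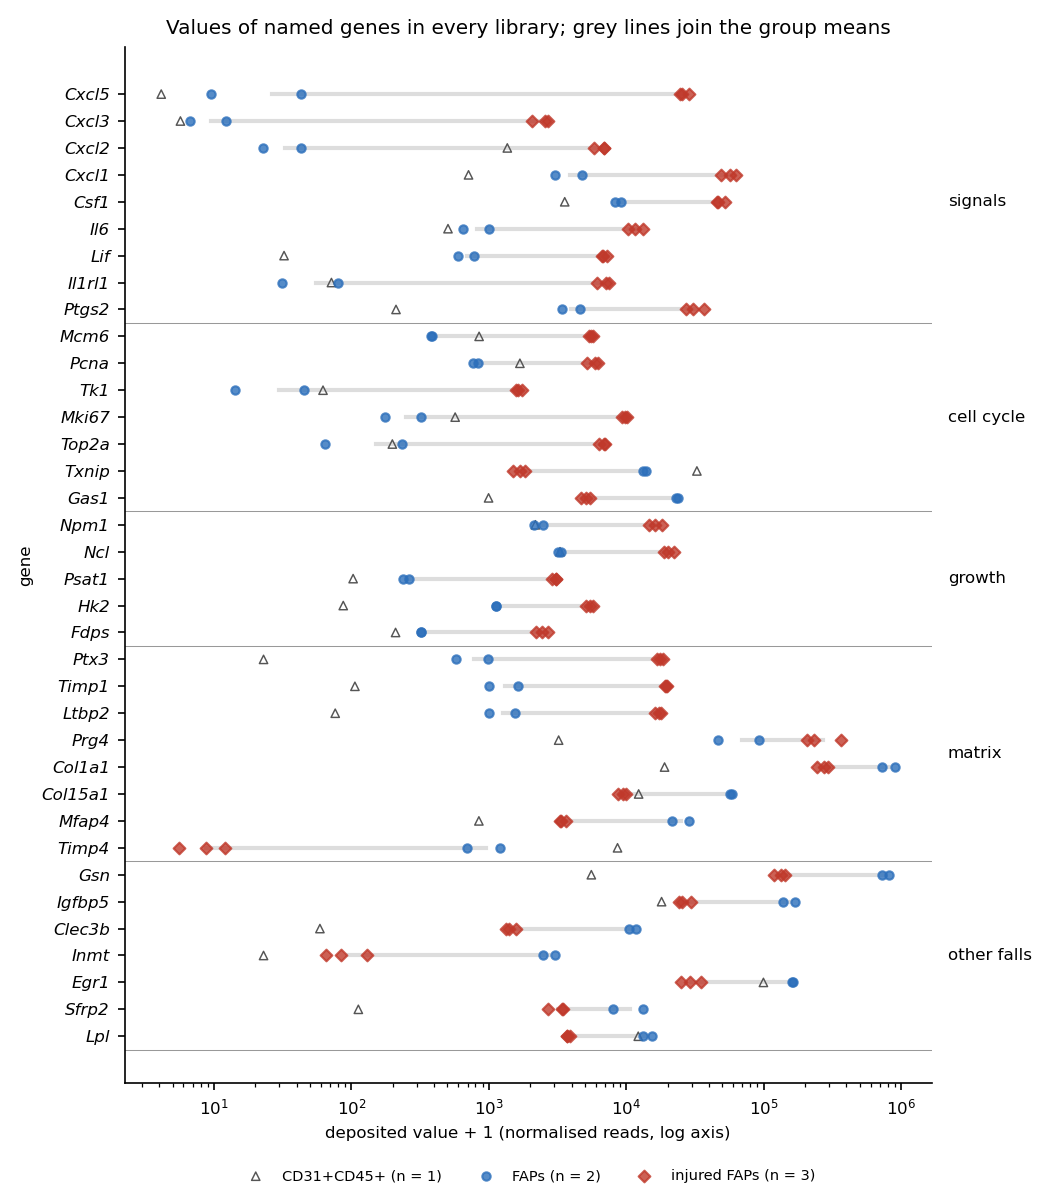
Values of 36 named genes in each library, as deposited value + 1 on a log x axis, with FAPs (n = 2) as blue circles, injured FAPs (n = 3) as red diamonds and the CD31+CD45+ library (n = 1) as open triangles. Grey lines join the group means, and for each gene drawn the FAP and injured FAP points do not overlap.

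Detoxifying and antioxidant enzymes had 11 of 31 higher (35.5%) and 10 lower (32.3%), against 25.7% and 29.2% of all genes, with a median of 0.42. Inmt, a methyltransferase of indole and thiol compounds, was 3036 and 2479 in FAPs and 83.2, 64.3 and 129 in injured FAPs. The groups were far apart, 29.9-fold lower in injured FAPs (log2 -4.94 ± 0.23 SE, adjusted p = 4.66e-08), and the CD31+CD45+ library held 22. Gpx3, the secreted glutathione peroxidase, was 46786 and 47129 against 15947, 14930.1 and 13169, 3.20-fold lower. Cyp2e1, a xenobiotic oxidase, was 41.8 and 75.3 in FAPs and had 2 reads in the injured libraries together.

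Collagens, some of them at very high levels in FAPs, mostly fell. Of 23 fibrillar and network collagens, 18 fell and 1 rose with a median of -1.15, and under quantile normalization 13 fell with a median of -0.79. Col1a1, the main chain of type I collagen, was 730859.6 and 902332 in FAPs and 275672, 292925 and 244326 in injured FAPs. Both FAP libraries were above all injured ones, and the fall was 3.01-fold (log2 -1.59 ± 0.20 SE, adjusted p = 5.06e-05). Col3a1, the type III chain of soft tissue, was 495456 and 472792 against 237506, 279893 and 249445, 1.89-fold lower, but at log2 0.38 under quantile normalization. Quantile normalization, which gives every library the same top values, also put Col1a1 at -0.03, and neither gene was called there. Both were called lower under TMM scaling, a common 75th percentile, edgeR and DESeq2, and the whole list made up 10.8% and 11.7% of the FAP totals, against 5.18% to 5.61% of the injured totals. Col15a1, a collagen of basement membrane zones, was 57295 and 59112 against 10038, 8766 and 9532, 6.16-fold lower. Col6a2, of the beaded filaments around cells, was 126167 and 140974 against 41808, 36063 and 37805, 3.46-fold lower. The collagen that rose, chosen after its values were seen, was Col8a1, a short-chain network collagen, 2.92-fold from 4008 to 11705, and without FAP 2 and with DESeq2 there were 2 that rose.

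Proteoglycans and elastic fibre genes were lower in 15 of 24 and higher in 2 (4 under quantile normalization, 3 with DESeq2 and 6 with GC-corrected values), with a median of -1.0. Mfap4, a microfibril-associated protein, was 21620.5 and 28482 in FAPs and 3664, 3279.7 and 3367 in injured FAPs, 7.29-fold lower (adjusted p = 1.53e-08). Dcn, the collagen-binding decorin, was 234756 and 223783 against 87649, 90705 and 89136, 2.57-fold lower. Ltbp2, a latent TGF-beta binding protein relative of elastic fibres, rose from 995 and 1553 to 16149.8, 17866 and 17308, 13.4-fold. The other gene that rose was Efemp2, chosen after its values were seen. Tendon and cartilage type matrix was lower in 13 of 18 genes and higher in 1, or in 2 without FAP 1, without FAP 2, under quantile normalization or with GC-corrected values (median -1.18). Chad, the cartilage protein chondroadherin, was 16042 and 24619.5 against 3305, 3284 and 2975, 6.38-fold lower. Prg4, the lubricant lubricin, was the gene that rose, from 92344 and 46732 to 231493, 367236 and 207288, 3.86-fold (log2 1.99 ± 0.30 SE, adjusted p = 1.72e-04), which made it among the 10 most abundant genes of injured FAPs.

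Provisional and matricellular matrix, the kind laid down in wounds, had 12 of 28 higher (42.9%) and 10 lower (35.7%), against 25.7% and 29.2% of all genes (median 0.17). Ptx3, a pentraxin that crosslinks hyaluronan, was 985 and 579.5 in FAPs and 18357, 17513 and 16854 in injured FAPs. It stood apart in every library, 22.5-fold (log2 4.54 ± 0.17 SE, adjusted p = 1.29e-08). Ccn3, a matricellular growth inhibitor, was 4791 and 6180.1 against 682, 578 and 690.3, 8.44-fold lower. Sparc, a collagen chaperone, was 295185 and 321044 against 161080.1, 153653 and 147661, 2.0-fold lower, and lost its call under quantile normalization at log2 -0.34. Thbs4, a thrombospondin of tendon and muscle, was 115741 and 109172 in FAPs and 144210.0, 145137 and 139812 in injured FAPs, a log2 difference of 0.35 under the threshold. Hyaluronan and its binders are in this list too, and the hyaluronan synthases Has1 and Has2, chosen after their values were seen, were 6.36-fold and 4.37-fold higher while Has3 was 5.50-fold lower.

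Proteases and their inhibitors had 11 of 29 higher (37.9%) and 13 lower (44.8%), against 25.7% and 29.2% of all genes (median -0.09). Among the 27 read in both FAP libraries, 9 were higher and 13 lower, and tissue inhibitors of metalloproteinases moved in opposite directions. Timp1 was 1616 and 1000.1 in FAPs and 19237, 19715 and 19465 in injured FAPs, 14.9-fold higher (log2 3.94 ± 0.16 SE, adjusted p = 1.72e-08). Timp4 was 1198 and 696 against 11, 7.75 and 4.58, 122-fold lower (log2 -6.77 ± 0.34 SE, adjusted p = 6.88e-08). All FAP values of Timp4 were over 50 times every injured value, yet the CD31+CD45+ library held 8638, a higher level than in FAPs. Serping1, the inhibitor of complement C1, was 102167 and 96528 against 29110.2, 28016 and 27296, 3.53-fold lower. Mmp9, a gelatinase of leukocytes, had 3 reads in the FAP libraries together and was 88.7, 149 and 118 in injured FAPs. Fibrogenic and myofibroblast genes had 10 of 25 higher (40.0%) and 10 lower (40.0%), against 25.7% and 29.2% of all genes. Their median was 0.17, or 0.37 under quantile normalization and 0.07 with a common 75th percentile. Log2 fold changes in this list ran from -3.04 to 3.94. The lowest was that of Cnn1, a contractile calponin, 8.92-fold lower.

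Cytoskeletal genes were higher in 18 of 30 and lower in 2 (3 with GC-corrected values), with a median of 0.68. Vim, the intermediate filament vimentin, was 64692 and 67223 in FAPs and 174297, 156937 and 170872 in injured FAPs, 2.54-fold higher. Tubb5, a beta tubulin, was 7906 and 7559 against 39672, 37092 and 37046, 4.91-fold higher. Stmn1, which frees tubulin from microtubules in dividing cells, was 13.3-fold higher (20.4-fold without FAP 2), and the list members that fell, chosen after their values were seen, were Ezr and Tmsb4x. Gsn, the actin-severing gelsolin, is not in that list but in the FAP marker list and among the most abundant FAP genes, and was 816113 and 730025 in FAPs and 143378, 119789 and 133908 in injured FAPs. It fell 5.84-fold (log2 -2.55 ± 0.17 SE, adjusted p = 4.94e-07), so that its value in injured FAPs lay below that of Vim in the same libraries, levels not set per length.

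Signals to muscle and to neighbouring stroma were counted by family. Among factors by which FAPs act on satellite cells, 6 of 19 (31.6%) were higher and 6 (31.6%) lower, against 25.7% and 29.2% of all genes, and their median of 0.0009 changed sign with a common 75th percentile (-0.09) and with GC-corrected values (-0.06). Growth factor ligands were higher in 12 of 38 (31.6%) and lower in 18 (47.4%), against the same shares of all genes (median -0.14). Angptl4, a lipase inhibitor, was 435 and 497 in FAPs and 5202, 6999.7 and 5522 in injured FAPs, 12.7-fold higher (adjusted p = 6.54e-09). Ereg, an EGF receptor ligand, was 0.951 and 4.70 against 195, 182 and 214, 69.7-fold higher from 6 reads in the FAP libraries together, or 41.9-fold without FAP 1 and 207-fold without FAP 2. Igf1, which drives growth of muscle fibres, was 9821 and 8567 against 5094, 5978 and 5938, 1.62-fold lower.

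Wnt pathway antagonists and agonists were lower in 13 of 19 and higher in 3, with a median of -1.48. Sfrp2, a secreted Wnt antagonist, was 8071 and 13308 in FAPs and 3427, 3473 and 2712 in injured FAPs, 3.34-fold lower. Wnt10b, a ligand that holds back fat cell formation, was 148 and 197 against 25.1, 21.7 and 23.6, 7.34-fold lower, so a ligand and an antagonist fell together. The genes that rose were the ligands Wnt2, Wnt2b and Wnt5b, chosen after their values were seen, and Wnt2b was not called without FAP 2 (log2 0.51) or without injured FAP 3 (0.65). BMP and activin antagonists and ligands were lower in 9 of 17 (52.9%) and higher in 1 (5.9%), against 29.2% and 25.7% of all genes. Their median was -0.66. Chrd, the BMP antagonist chordin, was 1571 and 1783 against 253, 213 and 274, 6.79-fold lower, and the ligand Bmp4 was 1735 and 1727 against 356, 358 and 338, 4.94-fold lower. Bmper, a BMP-binding regulator chosen after its values were seen, was the gene that rose.

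The growth hormone and IGF axis was lower in 10 of 20 and higher in 1, against 29.2% and 25.7% of all genes (median -0.40). Igfbp5, an IGF-binding protein, was 138738 and 170118 in FAPs and 25492, 29424 and 24271 in injured FAPs, 5.85-fold lower (log2 -2.55 ± 0.13 SE, adjusted p = 7.74e-08). Igfbp6 was 30583 and 26034 against 5687, 4448 and 5237, 5.52-fold lower. The gene of the axis that rose, chosen after its values were seen, was Igfbp2, at a mean of 35.1 in injured FAPs, and 2 genes rose without FAP 1, without FAP 2 or without injured FAP 3, under quantile normalization, with edgeR, with DESeq2 and with GC-corrected values, and 3 under TMM scaling. Circadian output and glucocorticoid response genes were lower in 8 of 20 (40.0%) and higher in 1 (5.0%), against 29.2% and 25.7% of all genes. Their median was -0.35, or -0.19 with GC-corrected values, and 2 were higher without FAP 2. Tsc22d3, the glucocorticoid-induced leucine zipper, was 5495 and 5112 against 952, 749 and 834, 6.28-fold lower, while Sgk1, a kinase of the same response, was 2.55-fold higher.

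Adipogenic regulators and early adipocyte genes were lower in 14 of 20 and higher in 2, with a median of -1.29. Lpl, the lipoprotein lipase, was 15461 and 13186 in FAPs and 3918, 3718 and 3698 in injured FAPs, 3.79-fold lower (adjusted p = 2.86e-08). Apod, a lipocalin, was 28318 and 24727 against 10989, 8836 and 11824, 2.51-fold lower. Pparg, the master regulator of fat cells, chosen after its values were seen, was 5.66-fold lower, from a mean of 192 to 33.8. The genes that rose, chosen in the same way, were Cebpb and Plin2, and Cebpb was not called without FAP 2 (log2 0.51). Under quantile normalization and with a common 75th percentile 1 gene of this list was higher.

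**Figure D3:**
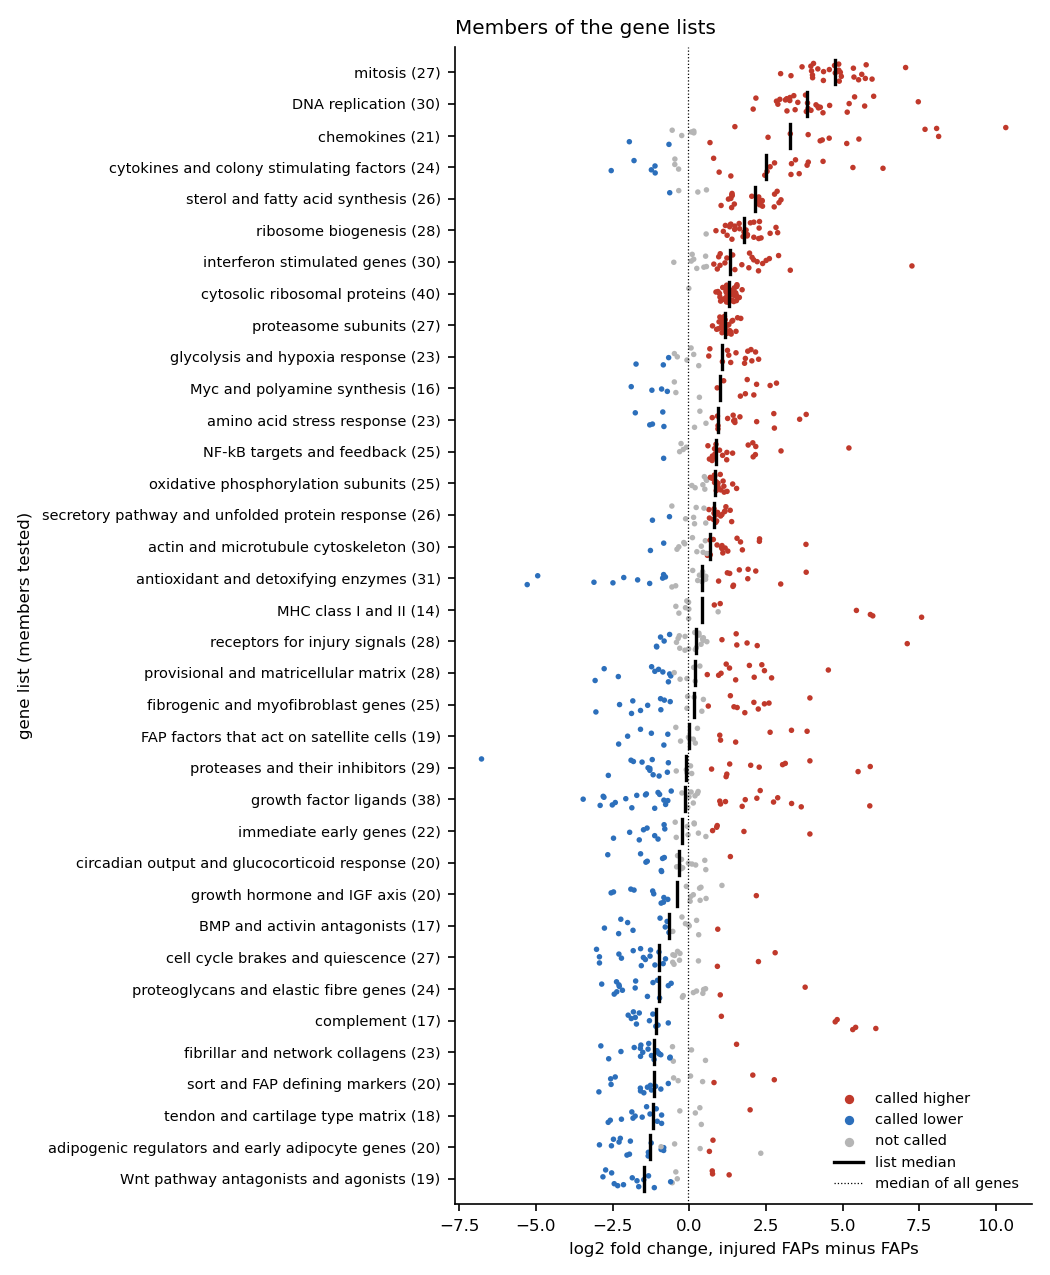
Log2 fold change (injured FAPs minus FAPs) of each tested member of 36 gene lists, with genes called higher in red, called lower in blue and not called in grey, black bars at list medians and a dotted line at the median of all genes (-0.05). DNA replication and mitosis lie wholly to the right and collagens, Wnt and adipogenic lists mostly to the left, and values of genes at 0 in FAPs, as in complement and MHC, depend on the pseudocount.

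Complement and MHC genes show how the zeros in FAPs shape a count. Complement had 6 of 17 genes higher and 11 lower (median -1.09, or -1.09 with bounds), and 5 of the higher genes were at 0 in both FAP libraries. Among the 12 genes read in both FAP libraries, 1 rose and 11 fell. C3, the central component, was 63347 and 54639 in FAPs and 40414, 40567 and 30060.1 in injured FAPs, 1.59-fold lower, and lost its call under quantile normalization (log2 -0.13), with GC-corrected values (-0.46), without FAP 1 (-0.58) and without injured FAP 3 (-0.54). C1qb, of the macrophage-made C1q complex, was listed at 0 in FAPs and at 39.2, 215 and 35.1 in injured FAPs, with 2751 in the CD31+CD45+ library. The gene read in FAPs that rose was the protease Cfb, chosen after its values were seen, 2.07-fold from 3666 to 7585. MHC genes were higher in 6 of 14 (42.9%), against 25.7% of all genes. Their median was 0.40, or 0.40 with bounds and 0.64 with GC-corrected values. Of the higher genes, 4 were class II genes or their chaperone at 0 in FAPs. Cd74, the class II invariant chain, was 115, 575 and 103 in injured FAPs, highest in injured FAP 2, and 14743 in CD31+CD45+ cells. Without genes at 0 in a FAP library, 2 of 10 MHC genes were higher, against 25.7% of all genes tested.

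Markers of other cells were measured in every library. Monocyte and macrophage markers were higher in 12 of 14 tested (median 4.87, or 3.97 with bounds), and 11 of these were at 0 in both FAP libraries, the defining Ptprc, Adgre1, Csf1r, Lyz2 and Tyrobp among them. These genes could be members through their injured values alone, and of the 3 markers read in both FAP libraries 1 was higher. Cd68, the most abundant of the list in FAPs, was 254 and 477 there and 212, 553 and 183 in injured FAPs. Its values overlapped with injured FAP 2 the highest, and it was lower with a call without injured FAP 2 (log2 -0.82) and not called at 0.13 without FAP 2. Lyz2, macrophage lysozyme, was listed at 0 in FAPs, at 142, 725 and 109 in injured FAPs and at 7022 in CD31+CD45+ cells. Ptprc, which encodes the depleted antigen CD45, was 11.8, 55.8 and 9.92 in injured FAPs and 797 in CD31+CD45+ cells. The FAP libraries held 3 of the 16 genes above 0 and the injured libraries 16 of 16. The whole list made up 0.00118% and 0.00220% of the FAP totals, 0.00400%, 0.0186% and 0.00361% of the injured totals and 0.170% of the CD31+CD45+ total. Neutrophil markers had 4 of 16 genes tested, all higher (median 5.11, or 4.41 with bounds), but 3 of these were at 0 in a FAP library. The marker read in both was Lcn2, a siderophore-binding lipocalin that stroma also makes, the most abundant, at 237 and 121 in FAPs against 723, 933 and 559.8. The neutrophil list summed to 247 and 143 in the FAP libraries against 887, 1549 and 754 after injury. Lymphocyte and mast cell markers had 1 gene tested, Cd79a, at 26.6 and 48.9 in FAPs and 22.8, 17.8 and 25.9 in injured FAPs, called lower without FAP 1 alone (log2 -1.12), and Cd3e and Nkg7 were at 0 in the FAP libraries. That list summed to 26.6 and 48.9 in FAPs and 41.6, 55.0 and 44.2 in injured FAPs. Red cell and platelet markers had 3 genes tested, 2 higher and 1 lower (median 5.18, or 3.87 with bounds). Both higher genes, Pf4 and Ppbp, were at 0 in both FAP libraries and could be members through their injured values alone. Without them 0 of 1 was higher. Pf4 was 33.7, 164 and 33.6 in injured FAPs. Both defining haemoglobin genes were at 0 in the FAP and injured FAP libraries and in the CD31+CD45+ library too, so their zeros do not show that red cells were absent. The gene that fell, Itga2b, the most abundant, was not lower with a call without FAP 2 or with GC-corrected values, and the list summed to 300.5 and 389 in FAPs, against 283, 469 and 284 after injury. Leaving out injured FAP 2 gave 7452 calls in all, against 7445, and 7245 genes were called with it and without it.

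Endothelial markers had 4 of 15 higher (26.7%) and 8 lower (53.3%), against 25.7% and 29.2% of all genes (median -0.92, or -0.92 with bounds). All 4 higher genes were at 0 in both FAP libraries, and of the 10 genes read in both, 8 were lower and 0 higher. Plvap, of endothelial diaphragms, was listed at 0 in FAPs, at 382, 332 and 284 in injured FAPs and at 32817 in the CD31+CD45+ library. Kdr, a VEGF receptor of like level in CD31+CD45+ cells (31407) and chosen after its values were seen, was 1054 and 684 in FAPs and 103, 98.4 and 80.8 in injured FAPs. Plvap, Emcn, Cldn5 and Vwf are given as listed at 0 in FAPs and not as absent. Pecam1, which encodes the depleted antigen CD31, was 195 and 0 in FAPs and 192, 269 and 121 in injured FAPs. It was not called, and stood at log2 -0.08 without FAP 2. Without FAP 1 the size of its difference is set by the pseudocount, since FAP 2 was at 0. Eng, the most abundant gene of the list, was 11046 and 11409 against 9634, 9739 and 8117 with no call, and at log2 0.07 with GC-corrected values. The list summed to 24422 and 19949.5 in FAPs, to 11177 to 13396 in injured FAPs and to 660016 in the CD31+CD45+ library.

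Mural, nerve, muscle and fat markers were counted in the same way. Smooth muscle and pericyte markers were lower in 14 of 16 (median -1.80), with Myh11, smooth muscle myosin, at 2873 and 2246 in FAPs and 253, 326 and 316 in injured FAPs, and Pdgfrb the most abundant. Their sum was 48086 and 45286 in FAPs, against 24978 to 26129 after injury. Skeletal muscle fibre transcripts were lower in 15 of 19 (median -1.58), with Des, the filament desmin, at 713 and 725 against 362, 424 and 326 as the most abundant. Their sum was 2043 and 2229 in FAPs, against 784 to 979.6 after injury. Schwann cell and nerve markers were lower in 9 of 15 (median -0.95), led in level by Itih5 in FAPs, and the genes that rose were Mal and, chosen after its values were seen, Slc2a1, a glucose transporter that many cells express. Mal was 0 and 7.53 in FAPs and 25.1, 11.6 and 25.2 in injured FAPs, and was not called without injured FAP 1. Among the 14 genes of the list read in both FAP libraries 1 was higher, and the list summed to 37468 and 38984.5 in FAPs, against 13111 to 14807 after injury. Satellite cell and myoblast markers had 2 of 10 higher (3 under quantile normalization and with GC-corrected values) and 4 lower, against 25.7% and 29.2% of all genes (median -0.89). The genes of that list that rose were Sdc4 and Vcam1, surface proteins that FAPs express too, while Pax7, the defining factor of satellite cells, fell from 31.4 and 65.9 to 11.8, 10.8 and 5.34, as did Fgfr4, Itga7 and Des. Sdc4 was the most abundant member, and with Sdc4 and Vcam1 both higher the list's sum was 5998 and 5726 in FAPs, against 10892 to 11717.5 after injury, and Myog was at 0 in both FAP libraries. Adipocyte markers had 4 of 13 genes tested, with Aqp7, Car3 and Lpl lower (median -1.93) and Lpl making up most of a sum of 16415 and 13477 in FAPs, and of 3883 to 4143 after injury. Aqp7 was 73.2 and 8.47 in FAPs, and its fall went from 13.2-fold to 2.73-fold, with no call, without FAP 1. The part of carried-over cells in any of these differences was not tested.

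**Figure D4:**
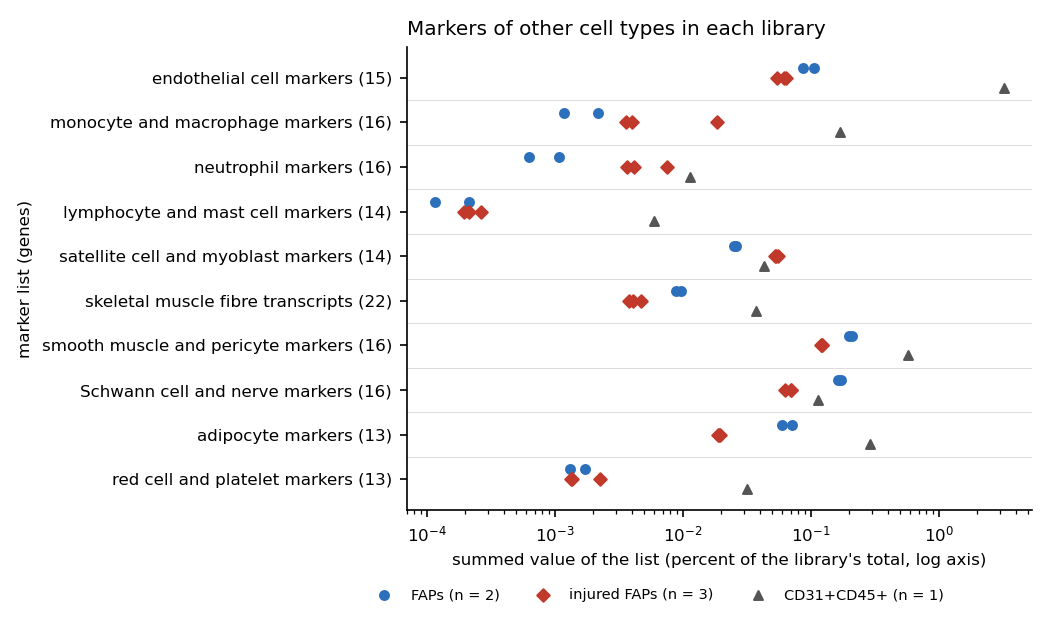
Summed value of 10 marker lists of other cell types as percent of each library's total, on a log x axis, for FAPs (n = 2, blue circles), injured FAPs (n = 3, red diamonds) and the CD31+CD45+ library (n = 1, grey triangles). Macrophage markers reach 0.0186% in injured FAP 2 against 0.00400% and 0.00361% in the other injured libraries, and mural, nerve, muscle fibre and adipocyte markers are higher in FAPs than in injured FAPs.

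Timp4 shared a high level in the depleted cells with several of the 10 largest falls. Slc26a10, an anion transporter relative, was 322 and 341 in FAPs, 5.49, 7.75 and 4.58 in injured FAPs and 3363 in the CD31+CD45+ library. Kcna5, a voltage-gated potassium channel, was 369 and 293, then 7.85, 10.1 and 6.10, with 3376 in CD31+CD45+ cells. Gpihbp1, which anchors lipoprotein lipase on capillaries, was 354 and 203, then 13.3, 23.2 and 7.63, with 11251. Of the genes called lower, 20.2% had a CD31+CD45+ value of at least 2 times the FAP mean, against 18.4% of those called higher and 16.3% of all genes tested. When genes at least 2 times higher in CD31+CD45+ cells than in injured FAPs were left out, 10401 genes gave 3246 higher and 1960 lower, and this rule takes away lower genes by its use of the injured values.

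A gene at 0 in both FAP libraries could reach a mean of 10 through its injured values alone, so the calls of these 125 genes as higher follow from how members were chosen. More widely, 368 genes had a mean of at least 10 in injured FAPs alone, Cxcl3, Ereg, Hmga2 and Orc1 among them. These too were members through their injured values, so their rises follow in part from that choice. Of the 125 genes, 117 were higher in the CD31+CD45+ library than in injured FAPs and in 96 injured FAP 2 was at least 2 times the mean of the others. Endothelial markers made up 3.21% of the CD31+CD45+ total and monocyte and macrophage markers 0.170%, so its levels stand more for endothelial than for leukocyte RNA.  Mpeg1, the macrophage perforin, was 218, 394 and 199.8 in injured FAPs and 986 in CD31+CD45+ cells. Sele, the selectin that catches leukocytes on vessels, was 206, 178 and 219.7 in the injured libraries, with injured FAP 2 the lowest of the 3 and 2544 in CD31+CD45+ cells. Mmp13, a collagenase chosen after its values were seen, had an injured mean of 45.1 against 9.42 in the CD31+CD45+ library. Without any gene at 0 in a FAP library, an alternative added after the data were seen, 3329 genes were higher and 3979 lower of 13364.

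Calls also tracked the base composition of the transcripts. For 13294 genes with a GENCODE M21 transcript, sorted into 5 equal bins of GC content, the median log2 fold change was 0.24 in the lowest bin and -0.45 in the highest. The share called higher went from 33.3% to 16.1% and the share called lower from 18.8% to 43.5% across those bins. Transcript length showed less of a trend, with bin medians of 0.10 for the shortest and -0.10 for the longest transcripts. After values were centred within GC bins of each library, also added after the data were seen, 3505 genes were higher and 3617 lower of 13294, and all 30 DNA replication and 27 mitosis genes were still higher while collagens had 1 higher and 14 lower. What the relation to GC content came from was not tested.

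**Figure D5:**
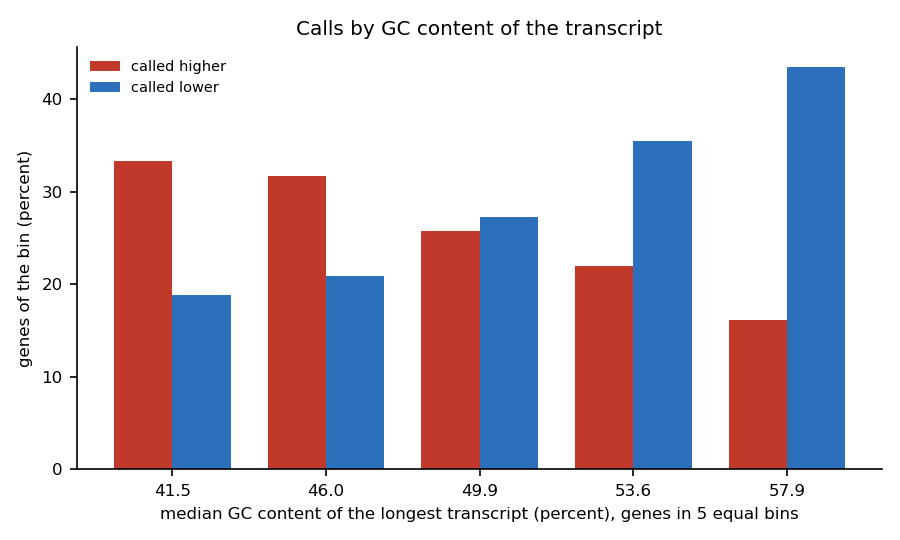
Share of genes called higher (red) and lower (blue) in injured FAPs, in percent of the genes of each bin, for 5 equal bins of the GC content of the longest transcript, with the bin's median GC content in percent on the x axis. The share called higher is 33.3% in the bin of lowest GC content and 16.1% in the highest, and the share called lower 18.8% and 43.5%.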

How the data were processed

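Bulk RNA sequencing of sorted cells was measured in 9 libraries. The deposited signal values of the authors are reads aligned with HISAT2 to mm10, counted with Subread and divided by DESeq2 size factors. Every value above 0 came out whole (100%) when multiplied by its library's factor (tolerance 0.01). FAPs (n = 2) and injured FAPs (n = 3) were compared with limma 3.58.1 (R 4.3.3), with a trend, on log2(value + 1) for genes with a mean of at least 10 over the 5 libraries, which leaves 3 residual degrees of freedom. P-values were adjusted by Benjamini-Hochberg over 13545 genes. On the recovered reads edgeR 4.0.16 called 7476 and DESeq2 1.42.0 called 7312 genes.

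Gene lists (46, with 986 genes) were written by hand. Named genes were the 10 largest rises and falls among called genes with a mean of at least 100 and groups apart, the 10 most abundant of each group, the 2 most abundant and the 2 most changed of each list, the 2 most abundant markers of each other cell type, and the sorting markers. The other 62 genes named (Adgre1, Bmper, Bnip3, Btg1, Ccl11, Ccl2, Ccl27a, Ccl7, Ccl8, Cdkn2c, Cebpb, Cebpd, Cfb, Chac1, Cldn5, Col8a1, Csf1r, Ctf1, Ddit3, Efemp2, Egln3, Ezr, Has1, Has2, Has3, Herpud1, Ier3, Ier5, Ifngr1, Igfbp2, Il11ra1, Il12a, Il15, Il33, Il34, Itga7, Kdr, Klf6, Lifr, Mmp13, Mxd1, Mxd4, Mxi1, Myc, Mycn, Ndrg1, Plin2, Pparg, Rbl1, Scd1, Slc2a1, Stc2, Tgfbr2, Tlr4, Tmsb4x, Tnf, Trib3, Tyrobp, Vwf, Wnt2, Wnt2b, Wnt5b) were chosen after their values were seen. The members and lists were chosen with earlier results of these data known. For list medians with bounds, a gene at 0 in both FAP libraries was given a floor of 3 reads per library, which covers counting error only and holds only if the zeros are counts. Promoters were matched by symbol to RefSeq GRCm38.p6 for 10711 of 13545 genes (79.1%), which is under 80%, as it is for called higher genes, called lower genes and chemokines, so the motif check is void for those sets. Shares are given for lists at 80% or more against all RefSeq genes with a promoter. The share of the 10711 tested genes with a promoter stands beside it as a description of those genes alone, and no comparison is tested. AP-1 (TGANTCA), E-box (CACGTG) and SREBP (TCACNCCAC) letters were searched too and are not reported here. Gene types came from RefSeq, and transcript length and GC content from GENCODE M21. ASC libraries were used in an alternative fit, and CD31+CD45+ (n = 1) for levels with no test. Alternatives changed the pseudocount, the filter, the scaling, the tool and the threshold, blocked replicate numbers as pairs, left out each library in turn and left out genes higher in CD31+CD45+ cells.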

Additional observations from a re-analysis of the deposited data

How the results depend on the processing

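The count of called genes was 7445, and stayed within 1.5 times that under every alternative but the log2 threshold of 1, which asks for a larger change and gave 4752, with 2108 higher. Leaving out genes higher in CD31+CD45+ cells gave 1960 lower genes of 10401 tested, and the filter itself takes away lower genes. No gene was called in opposite directions by the reported test and an alternative. Quantile normalization gave 7261 calls, of which 6718 were shared, TMM scaling 7477, a common 75th percentile 7508 (median of all genes at -0.14), edgeR 7476 and DESeq2 7312. With ASCs in the fit 7174 genes were called. With a replicate block, which pairs libraries by number, 7196 were called. The added alternatives gave 7122 (GC-corrected values) and 7308 (no gene at 0 in a FAP library).

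Leaving out each library in turn gave 7193 to 7571 called genes, 3382 to 3583 higher and 3763 to 3988 lower. List members called were 702 to 712 and named genes called 150 to 152. With 1 FAP library left, that library is assumed to vary like the injured FAPs.

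Of 183 genes the text names, all kept direction and call with either pseudocount, TMM scaling, edgeR and DESeq2, 173 under quantile normalization, where 6 lost and 2 gained a call, 176 with GC-corrected values and 173 to 181 with a library left out. Of these genes, direction turned for Col3a1 under quantile normalization (log2 0.38), and for genes without a call. Thy1 was -0.043 under quantile normalization, -0.051 with a common 75th percentile and -0.032 to 0.12 with a library left out (lowest without FAP 1, also below 0 without injured FAP 1). Cd68 ranged from -0.82 (without injured FAP 2) to 0.13 (without FAP 2). Pecam1 was -0.079 without FAP 2, and its 7.53 without FAP 1 has a size set by the pseudocount, since FAP 2 is at 0. Eng was 0.067 with GC-corrected values. The causes were not tested. Depth limits folds of genes with few reads in FAPs, and for genes listed at 0 there it is not known whether the zeros are counts.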
